A study of Sus scrofa with 9 samples.

Results

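The platelet-derived growth factors and their receptors, and a few ligands of the epidermal growth factor (EGF) family with their receptor, were followed in the abdominal aorta of the Tibetan minipig, a small pig breed used as a diet-induced model of atherosclerosis. The genes were picked by name: the 4 PDGF ligands PDGFA, PDGFB, PDGFC and PDGFD, the 2 PDGF receptors PDGFRA and PDGFRB, the 3 EGF family ligands HBEGF, EREG and TGFA, and the receptor EGFR. All 10 were found among the 21357 genes of the expression table, each under a single entry, so the provision to keep the entry with the highest mean level was not needed. The label of mitogens holds for the 7 ligands, and the other 3 genes are the receptors that read them.

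RNA of whole vessel wall from the abdominal aorta was sequenced in 3 groups of 3 pigs. For NC and H24, the paper describes male pigs, a few months old when bought, and vessel from the end of the abdominal aorta. It does not describe H8, so these details are not given there for that group. NC pigs received a normal diet for 24 weeks. H24 pigs received a diet high in fat and cholesterol for 24 weeks and are labelled as atherosclerosis. H8 pigs received the high-fat diet for 8 weeks and are labelled as hypercholesterolemia. There was no normal-diet group of 8 weeks, so between H8 and NC the diet and the time on study cannot be told apart, and the same holds between H24 and H8 for the time on diet and age. No genotype or drug differed between the groups.

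PDGFs are secreted as paired chains that act on 2 kinds of tyrosine kinase receptor: PDGFR-alpha binds the A, B and C chains, and PDGFR-beta binds mainly the B and D chains. In the vessel wall they are known as growth and migration signals for smooth muscle cells, pericytes and fibroblasts, with endothelium, platelets and macrophages among their sources. HBEGF (heparin-binding EGF-like growth factor), epiregulin (EREG) and transforming growth factor alpha (TGFA) are made as membrane-bound precursors that are cut free by proteases and then activate EGFR and its relatives of the ErbB family.

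Total counts were between 44094263 and 75787978 per library, at which 3 counts, the smallest signal considered, correspond to between 0.0396 and 0.0680 CPM, the count scaled to a common library size, counting error only. H24 replicate 3 stood apart from all other libraries: its Pearson r of log2 FPKM across genes was between 0.67 and 0.831 with the other 8 libraries, against 0.875 to 0.956 for the 28 pairs without it. It had the lowest summed smooth muscle marker level, 1710 FPKM against 7960 to 13600 FPKM in the other 8 libraries, and the highest summed macrophage marker level, 931 FPKM. The fold changes of the members called in H24 are therefore given with and without it. The defining markers of an artery wall were present in every library, with the 7 smooth muscle markers and the 6 endothelial markers all above 0. The tissue is a mixture, so more cells of a type and more RNA per cell cannot be told apart.

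In the normal aorta, PDGFRB was by far the most abundant of the 10 transcripts. Its mean level was 98.7 ± 8.06 FPKM (SD, n = 3), where FPKM is a read density scaled to transcript length and library depth that can be set side by side between genes. This placed PDGFRB at the percentile 98.2 of all genes in the table. EGFR followed at 24.7 ± 3.14 FPKM, then PDGFC at 12.8 ± 0.656 FPKM and PDGFA at 5.94 ± 0.730 FPKM. The ranges of these 4 genes did not overlap with each other. PDGFD at 3.29 ± 0.489 FPKM, PDGFB at 2.96 ± 1.05 FPKM, PDGFRA at 2.11 ± 0.667 FPKM and HBEGF at 1.80 ± 0.112 FPKM each overlapped with the next in this order.

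The order of the members was different in the pigs on the high-fat diet. In H8, HBEGF stood at 11.0 ± 6.39 FPKM, so that its range overlapped with that of PDGFC. In H24, PDGFB (13.1 ± 4.69 FPKM), HBEGF (12.5 ± 4.36 FPKM), PDGFD (11.7 ± 4.28 FPKM) and PDGFC (11.3 ± 1.10 FPKM) lay together, each within the spread of the next. PDGFRB remained the highest member in H8 (82.8 ± 17.1 FPKM) and in H24 (112 ± 46.2 FPKM), above the range of EGFR in both.

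**Figure D1:**
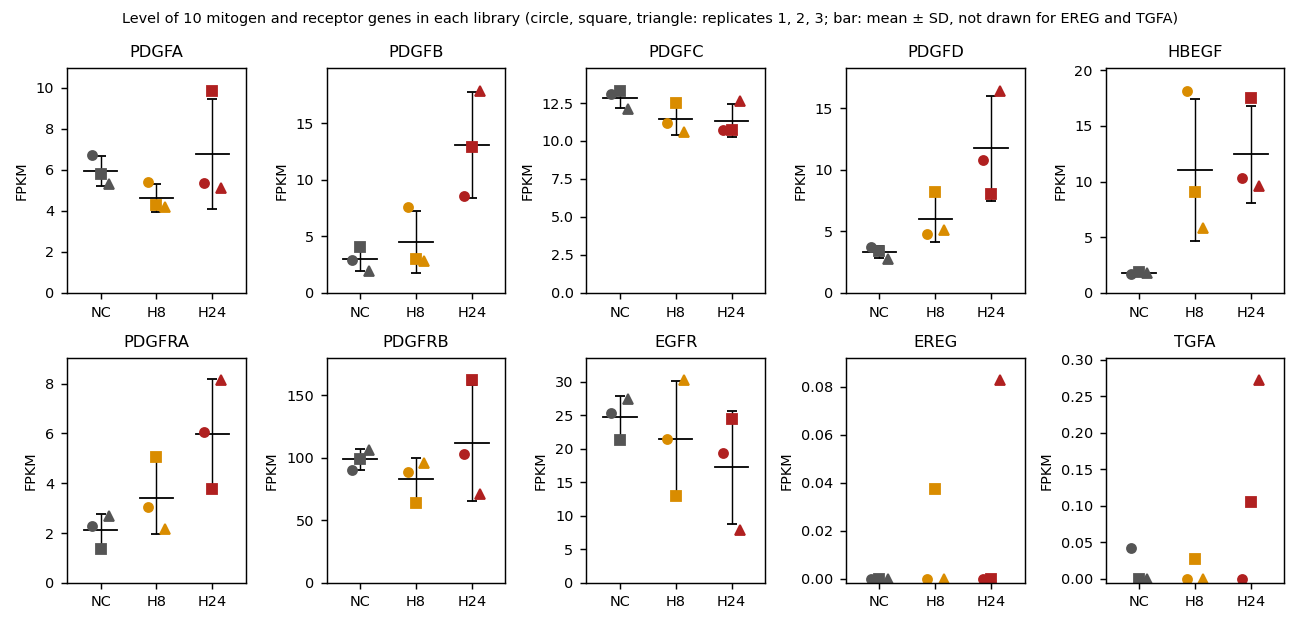
Level of each of the 10 genes in FPKM (vertical axis, own scale per gene) in the NC, H8 and H24 libraries, with a circle, square and triangle for replicates 1, 2 and 3 and a bar for the mean ± SD. HBEGF lies between 1.68 and 1.91 FPKM in NC and at 5.86 FPKM or more in all 6 libraries of the high-fat diet, PDGFB rises above the other groups only in H24, and EREG and TGFA stay under 0.3 FPKM.

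The 3 comparisons between the groups were made with edgeR's quasi-likelihood test over all genes whose mean level in the libraries compared reached 0.1 FPKM. Of the 10 members, 8 passed this filter and EREG and TGFA did not. None of the 8 passed through a single group only, since their lowest level in any library was 1.37 FPKM. A gene is called higher or lower here when its log2 fold change is beyond 1 in size with an unadjusted p under 0.05, the thresholds used in the study. No member passed 0.05 after Benjamini-Hochberg adjustment over all genes in any of the 3 comparisons by this test. The members were chosen with results of these data known, so the p-values describe the spread and are not independent evidence.

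After 24 weeks (H24/NC), 4 members were called higher and 0 lower. The 4 were HBEGF, PDGFB, PDGFD and PDGFRA, and in each the lowest H24 library was above the highest NC library. Over all 14828 genes tested, 9.95% were called higher and 1.52% lower, and 12.8% had all H24 libraries above all NC libraries. The median log2 fold change of the 8 tested members was 0.83, against 0.01 over all genes tested. By the adjusted rule, 0 genes of the whole table passed with edgeR, 2055 genes had an unadjusted p under 0.05, and DESeq2 put 954 genes past an adjusted p of 0.05 with the same fold change.

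After 8 weeks (H8/NC), 2 members were called higher, HBEGF and PDGFD, and 0 lower. Both had all H8 libraries above all NC libraries. Of 14336 genes tested, 5.11% were called higher and 2.27% lower, and 6.91% had all H8 libraries above all NC libraries. By the adjusted rule, 0.014% passed in each direction. Of all genes called, 69.2% were higher, a share that was 55.7% when libraries were scaled by their total alone and 47.3% with limma on log2(FPKM + 0.1). The median log2 fold change was 0.35 in the 8 tested members and 0.01 over all genes, and scaling by the total alone moved the latter to -0.13.

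Between 8 and 24 weeks (H24/H8), only PDGFB was called, as 1 higher member with 0 lower. Its H24 libraries all lay above its H8 libraries. Of 14788 genes tested, 7.22% were called higher and 3.05% lower, and 15.5% had all H24 libraries above all H8 libraries. By the adjusted rule, 0.0135% passed as higher and 0% as lower. Of all calls, 70.3% were higher, and 83.3% when libraries were scaled by their total alone, which moved the median of all genes from 0.04 to 0.24. These comparisons share libraries, H24/NC and H8/NC the same NC pigs, so they are not independent of each other.

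**Figure D2:**
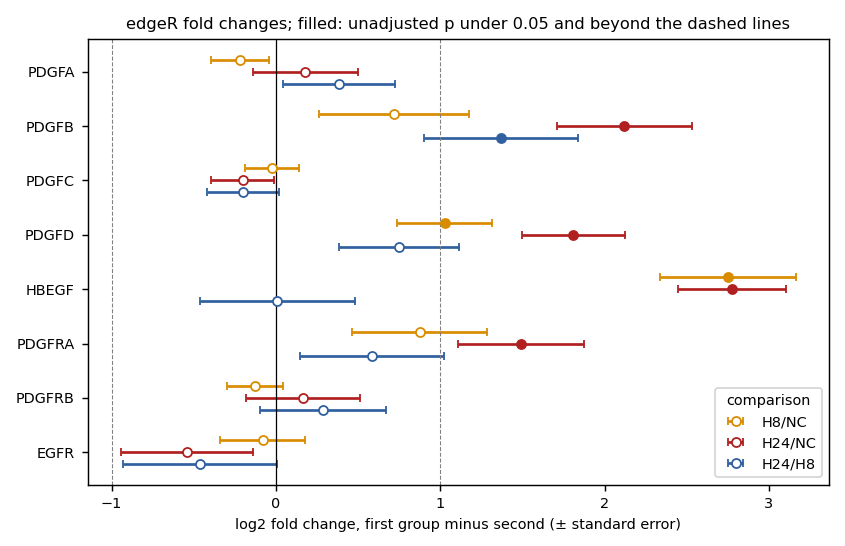
Log2 fold changes from edgeR (horizontal axis, first group minus second, bars ± standard error) of the 8 tested members for H8/NC, H24/NC and H24/H8, with filled points for called genes and dashed lines at 1 and -1. HBEGF has nearly equal values of 2.75 and 2.77 at 8 and 24 weeks, whereas PDGFB is filled for H24/NC and H24/H8 but not for H8/NC.

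HBEGF, a growth factor that activates EGFR and ERBB4 and is known to be made by activated macrophages, endothelium and smooth muscle, showed the largest fold changes of the members against NC. The gene (ENSSSCG00000014362) lies at chr2:142102458-142115196 on the minus strand of Sscrofa11.1. Its NC libraries had 1.68, 1.91 and 1.80 FPKM. The H8 libraries had 18.2, 9.07 and 5.86 FPKM, and the H24 libraries 10.3, 17.5 and 9.57 FPKM. All 6 libraries of the high-fat diet were above all NC libraries, and the H8 and H24 ranges lay across each other.

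For H8/NC this gave HBEGF a log2 fold change of 2.75 (SE 0.41), a 6.72-fold higher level, with an adjusted p of 0.0932 by edgeR. The change was above that of 98.6% of the genes tested. For H24/NC the log2 fold change was 2.77 (SE 0.33), or 6.83-fold, with an adjusted p of 0.126 by edgeR. Without H24 replicate 3 the latter was 2.93 with an adjusted p of 0.00653 by edgeR. In that fit 306 of all 14578 genes tested passed the adjusted rule, against 0 with all libraries. HBEGF passed the unadjusted thresholds in 15 of 15 alternative fits for both comparisons, with an adjusted p from 1.42e-11 to 0.465 for H24/NC and from 2.72e-08 to 0.365 for H8/NC. From H8 to H24 the difference was 0.01 on the log2 scale, with a 95% confidence interval from -1.10 to 1.12, which holds changes of either sign.

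PDGFB, the B chain, which binds both PDGF receptors and is known for recruiting mural cells, was the member set apart in the late group. It lies at chr5:8986462-9007462 on the plus strand (ENSSSCG00000033327). PDGFB had 2.87, 4.06 and 1.97 FPKM in NC, and 7.61, 3.03 and 2.83 FPKM in H8. In H24 it had 8.52, 12.9 and 17.9 FPKM. H8 replicate 1 alone was above the NC range by a wide margin, and the other 2 H8 libraries lay inside it.

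The log2 fold change of PDGFB was 2.12 (SE 0.41) for H24/NC, a 4.34-fold higher level, with an adjusted p of 0.132 by edgeR. It was called in 15 of 15 alternatives there (1.81 to 2.45), with an adjusted p between 8.75e-05 and 0.465. Without H24 replicate 3 it was 1.83. For H8/NC the value was 0.72 (SE 0.45) and was not called, with a 95% interval from -0.35 to 1.78. For H24/H8 it was 1.37 (SE 0.47) with an adjusted p of 0.341 by edgeR. That last call was lost without H8 replicate 2 (1.19), H8 replicate 3 (1.10), H24 replicate 2 (1.34) or H24 replicate 3 (1.10), and without H24 replicate 3 and H8 replicate 2 together it was 0.93.

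PDGFD, a later-found ligand that binds PDGFR-beta after a protease has removed its CUB domain, had intermediate levels in H8. It lies at chr9:34388643-34621263 on the minus strand (ENSSSCG00000014994), and DDI1 on the other strand, at most 0.14 FPKM, overlaps it, with the strand of counting not stated. PDGFD had 3.72, 3.41 and 2.76 FPKM in NC. It had 4.76, 8.15 and 5.10 FPKM in H8 and 10.8, 8.04 and 16.4 FPKM in H24. Every library of the high-fat diet exceeded every NC library, while the lowest H24 library was below the highest H8 library.

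For H24/NC, PDGFD changed by 1.81 on the log2 scale (SE 0.32), or 3.51-fold, with an adjusted p of 0.132 by edgeR. The value was 1.48 without H24 replicate 3 (adjusted p = 0.0281 by edgeR), the fit in which 306 genes passed the adjusted rule. The gene was called in 15 of 15 alternatives, with an adjusted p from 1.82e-05 to 0.465. For H8/NC it changed by 1.03 (SE 0.29), or 2.04-fold, just past the fold threshold, with an adjusted p of 0.218 by edgeR. It fell under that threshold in 6 of 15 alternatives, being 0.65 without H8 replicate 2 and 0.91 without NC replicate 3. For H24/H8 the value was 0.75 (SE 0.37, 95% interval -0.11 to 1.61), and it reached 1.12 and a call without H8 replicate 2.

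PDGFC and PDGFA, the ligands that act through PDGFR-alpha, were called in none of the 3 comparisons. PDGFC (ENSSSCG00000024960, chr8:45578002-45808789, minus strand), which like PDGFD carries a CUB domain, varied least of the 8 tested members, with 13.1, 13.3 and 12.1 FPKM in NC, 11.2, 12.5 and 10.6 FPKM in H8, and 10.7, 10.7 and 12.6 FPKM in H24. The groups overlapped. Its log2 fold changes were -0.02 (95% interval -0.41 to 0.36) for H8/NC, -0.20 (-0.66 to 0.25) for H24/NC and -0.20 (-0.72 to 0.31) for H24/H8. These intervals reach neither 1 nor -1.

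PDGFA (ENSSSCG00000007541, chr3:277224-322088, minus strand), the A chain, had 6.73, 5.79 and 5.30 FPKM in NC. It had 5.42, 4.27 and 4.21 FPKM in H8 and 5.36, 9.88 and 5.11 FPKM in H24. H24 replicate 2 was the high library, and the other 2 H24 libraries lay near the lowest NC library. The log2 fold changes were -0.22 (95% interval -0.64 to 0.20) for H8/NC, 0.18 (-0.58 to 0.93) for H24/NC and 0.38 (-0.42 to 1.19) for H24/H8. The sign of the latter 2 rested on H24 replicate 2, without which they were -0.22 and -0.05.

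The make-up of the PDGF ligand pool differed between the groups. The summed level of the 4 ligands was 22.1 to 26.6 FPKM in NC, 22.7 to 29.0 FPKM in H8 and 35.4 to 52.0 FPKM in H24. PDGFC made up 51.5 ± 2.81% of this sum in NC, 43.3 ± 4.21% in H8 and 26.8 ± 3.16% in H24 (SD, n = 3 each). The share of PDGFB was 11.7 ± 3.29%, 16.5 ± 8.5% and 29.8 ± 5.25% in the same order. PDGFD took 13.1 ± 0.850% of the sum in NC, 22.7 ± 6.30% in H8 and 27.2 ± 6.75% in H24. The ligands that bind PDGFR-beta, B and D, were thus the smaller part in every NC library and the larger one by group mean in H24. Within single libraries the ratio of PDGFB to PDGFA was 0.372 to 0.701 in NC, 0.673 to 1.4 in H8 and 1.3 to 3.5 in H24, with no overlap between NC and H24. The shares follow from the levels above and were not tested separately.

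**Figure D3:**
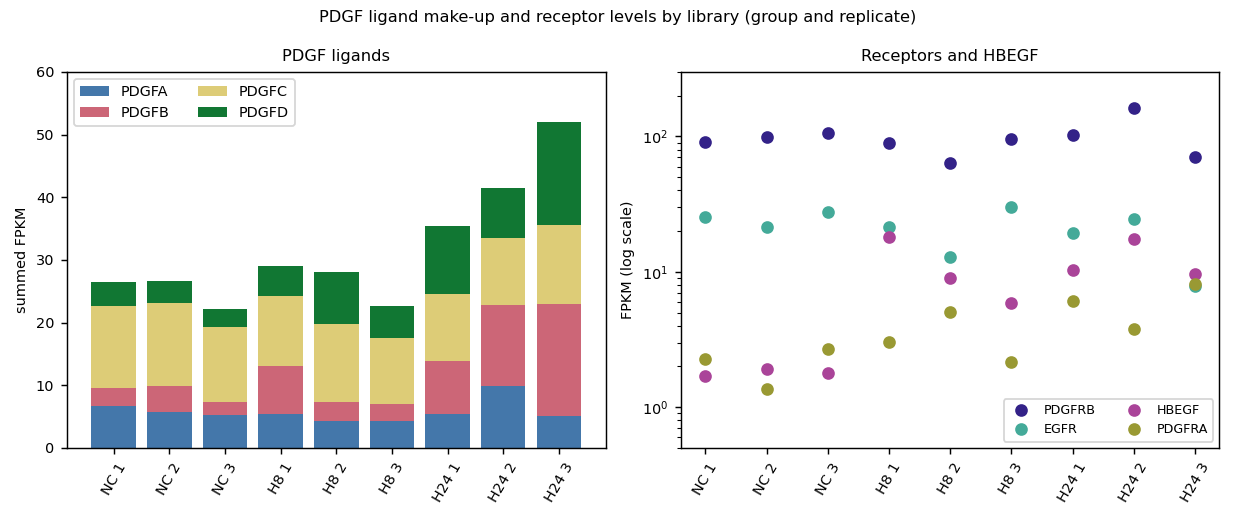
Left, summed FPKM of the 4 PDGF ligands in each of the 9 libraries, stacked by gene. Right, FPKM on a log axis of PDGFRB, EGFR, HBEGF and PDGFRA in the same libraries. The stacks are 22.1 to 29.0 FPKM high in the 6 NC and H8 libraries and 35.4 to 52.0 FPKM in H24, and the HBEGF points approach those of EGFR in H8 and H24.

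EREG and TGFA, the other EGF family ligands chosen, were at or near the detection limit. EREG (ENSSSCG00000038185, chr8:70351313-70372534, plus strand) had 0 counts in 7 of the 9 libraries, 12 counts in H8 replicate 2 and 24 counts in H24 replicate 3, which is 0.0376 and 0.0828 FPKM. TGFA (ENSSSCG00000008326, chr3:71948146-72050468, plus strand) had 6, 0 and 0 counts in NC and 0, 4 and 0 counts in H8. In H24 it had 0, 10 and 36 counts, the last being 0.272 FPKM. The libraries with most counts of both genes therefore included H24 replicate 3, and no fold change was computed for either. At this depth, 3 counts, or up to 0.0680 CPM, could have been missed in a library at 0.

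In H8 and H24, HBEGF had the highest level of the EGF family ligands. It supplied 41.9 to 44.8% of the summed FPKM of the ErbB ligands in the table in NC, 81.3 to 90.5% in H8 and 87.1 to 88.6% in H24. NRG4, a neuregulin that binds ERBB4, had 1.65, 2.03 and 1.53 FPKM in NC, above HBEGF in replicate 2 and below it in the other 2, and 0.636, 1.29 and 0 FPKM in H24. These NRG4 levels rest on few reads, at most 57 counts in an NC library and 21 in an H24 library. HBEGF had 312 to 410 counts in NC, so its share there depends on a poorly measured NRG4. EREG and TGFA together supplied at most 3.29% in any library.

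PDGFRA, the receptor for the A, B and C chains, is known as a marker of fibroblast-like cells. The gene (ENSSSCG00000008841) lies at chr8:40977604-41018506 on the plus strand and holds a small RNA gene of at most 0.325 FPKM. It had 2.27, 1.37 and 2.67 FPKM in NC. It had 3.05, 5.04 and 2.17 FPKM in H8 and 6.08, 3.78 and 8.13 FPKM in H24. H24 was above NC in every library, whereas H8 overlapped with both other groups.

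The log2 fold change of PDGFRA for H24/NC was 1.49 (SE 0.38), or 2.81-fold, with an adjusted p of 0.163 by edgeR, and it was 1.20 without H24 replicate 3. It was called in 15 of 15 alternatives (1.15 to 1.72), with an adjusted p from 0.00774 to 0.465. For H8/NC it was 0.87 (SE 0.41, 95% interval -0.09 to 1.84), and it reached 1.14 and a call without H8 replicate 3. For H24/H8 it was 0.58 (SE 0.44), and it reached 1.06 and a call without H8 replicate 2.

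PDGFRB, the receptor for the B and D chains and a defining receptor of mural cells, was called in no comparison. The gene (ENSSSCG00000022741) lies at chr2:151155754-151192816 on the minus strand. Its levels were 90.4, 99.4 and 106 FPKM in NC and 88.8, 63.5 and 96.0 FPKM in H8. In H24 they were 103, 162 and 70.9 FPKM, so that this group reached above and below the NC range. The log2 fold changes were -0.13 (95% interval -0.53 to 0.27) for H8/NC, 0.16 (-0.65 to 0.98) for H24/NC and 0.28 (-0.62 to 1.19) for H24/H8. Without H24 replicate 2 the latter 2 turned to -0.23 and -0.15.

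EGFR, the receptor that HBEGF, EREG and TGFA share, was called in no comparison either. It lies at chr9:139301586-139475037 on the plus strand (ENSSSCG00000022126). Its levels were 25.3, 21.3 and 27.5 FPKM in NC, 21.5, 12.9 and 30.2 FPKM in H8, and 19.3, 24.4 and 7.89 FPKM in H24. The lowest value was that of H24 replicate 3, the library with the lowest smooth muscle markers. The log2 fold changes were -0.08 (95% interval -0.69 to 0.53) for H8/NC, -0.54 (-1.49 to 0.41) for H24/NC and -0.46 (-1.57 to 0.64) for H24/H8. The H24/NC value was -0.19 without H24 replicate 3, and without H8 replicate 2 the H8/NC value was 0.13.

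The balance of ligand to receptor transcripts also differed between the groups. EGFR exceeded HBEGF by 11 to 15 times in the NC libraries, by 1.18 to 5.15 times in H8, and the ratio was 0.824 to 1.88 in H24. PDGFRB exceeded PDGFRA by 39.8 to 72.5 times in NC, by 12.6 to 44.3 times in H8 and by 8.72 to 42.9 times in H24, and these ranges overlapped. In the pathway annotation of the table, MAPK signaling and PI3K-Akt signaling each listed 8 of the 10 members and ErbB signaling 4, while PDGFB carried no pathway term.

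The members' partners were followed in 81 other genes of the pathways, set down by role, of which 76 were in the table. BTC, NRG3, AKT1, SOCS3 and JUN were not analysed here. For H24/NC, 9 of 73 tested (12.3%) were called higher and 1 lower, near the 9.95% and 1.52% of all genes. For H8/NC, 9 of 71 (12.7%) were higher and 1 lower, against 5.11% and 2.27%. For H24/H8, 7 of 73 (9.59%) were higher and 8 (11.0%) lower, against 7.22% and 3.05%. All libraries of the first group lay above all of the second in 11, 5 and 10 genes for H24/NC, H8/NC and H24/H8. They lay below in 5, 12 and 5 genes. These counts use FPKM without edgeR's scaling between libraries. On log2(FPKM + 0.1) with limma, the median of all genes for H8/NC was -0.119, against 0.0147 with edgeR. Of all genes, 12.8%, 6.91% and 15.5% lay above in the same order, and the share below was not computed. None of the listed genes passed an adjusted p of 0.05 in edgeR. The medians of the log2 fold changes were 0.06, 0.15 and -0.07 in this order, close to those of all genes.

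**Figure D4:**
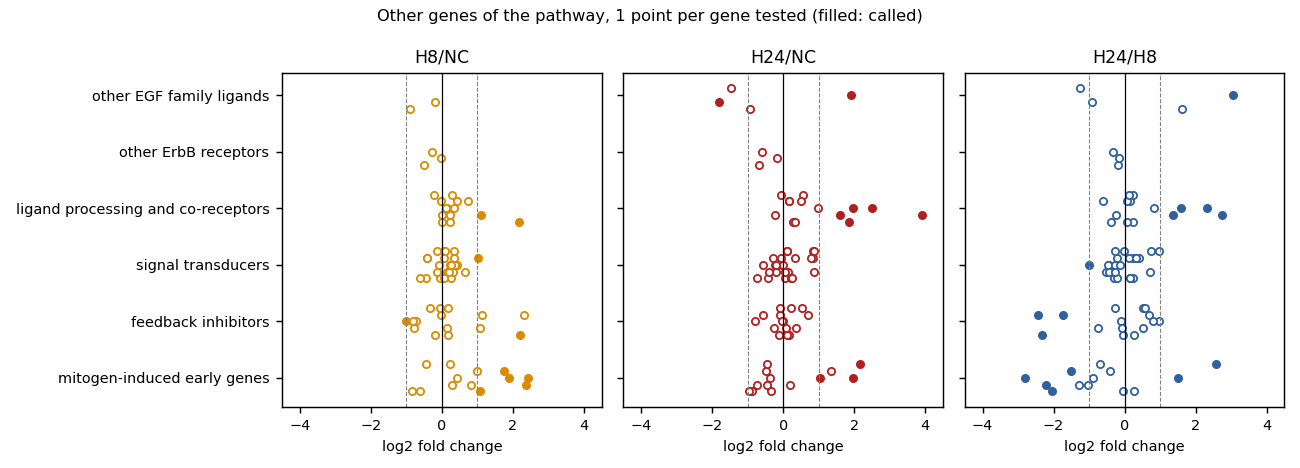
Log2 fold change (horizontal axis) of each tested gene of the 6 pathway lists for H8/NC, H24/NC and H24/H8, 1 point per gene, filled where called, with dashed lines at 1 and -1. The ErbB receptors have 0 filled points, ligand processing genes and co-receptors have 2, 5 and 4 filled points on the right for H8/NC, H24/NC and H24/H8, and 3 feedback inhibitors and 4 early genes lie to the left in H24/H8.

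Among the other EGF family ligands, NRG1 (neuregulin 1, a ligand of ERBB3 and ERBB4) was higher for H24/NC with a log2 fold change of 1.92 (SE 0.76) and for H24/H8 with 3.07 (SE 0.68). Its level was low, 0.612, 0.351 and 0.556 FPKM in H24 against 0.0427 to 0.263 FPKM in NC, and without H24 replicate 3 the H24/NC value was 1.84 and not called. The H24/NC call of NRG1 was also lost without H24 replicate 1 and with limma on log2(FPKM + 1). With the filter at a mean FPKM of 1, NRG1 was not tested for H24/NC. EPGN (epigen) was lower for H24/NC by the same rule, with a log2 fold change of -1.82 (SE 0.64) and 0.135, 0.0939 and 0.0349 FPKM in H24 against 0.265 to 0.396 FPKM in NC. EPGN lost this call without NC replicate 2 (-1.87) or NC replicate 3 (-1.63), with the replicate block (-1.94) and with limma on log2(FPKM + 1), and it was too low to be tested with the filter at a mean FPKM of 1. No list member of this group was called for H8/NC. The other ErbB receptors ERBB2, ERBB3 and ERBB4 were called in 0 of 3 cases in each comparison, ERBB2 having 13.4 to 16.0 FPKM in NC and 3.59 to 14.3 FPKM in H24.

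The list of ligand processing genes and co-receptors held 5 of 14 genes called higher for H24/NC, 2 for H8/NC and 4 for H24/H8, with 0 lower, where the shares of all genes called higher were 9.95%, 5.11% and 7.22%. Without H24 replicate 3 the list held 4 for H24/NC and 2 for H24/H8. ADAM12, a metalloprotease known to shed HBEGF, had log2 fold changes of 3.91 (SE 0.99) for H24/NC, 1.11 (SE 0.33) for H8/NC and 2.74 (SE 0.90) for H24/H8. Its H24 levels were 1.15, 1.49 and 12.1 FPKM, so the group mean was set by H24 replicate 3, but all H24 libraries were above the NC range of 0.243 to 0.425 FPKM. Without that library ADAM12 was at 2.01 for H24/NC and, no longer called, at 0.89 for H24/H8. RHBDF2 (iRhom2, which brings ADAM17 to the cell surface) changed by 1.97 (SE 0.57) for H24/NC and 1.59 (SE 0.56) for H24/H8. It had 5.80, 5.39 and 3.88 FPKM in NC and 9.12, 11.8 and 38.8 FPKM in H24, and without H24 replicate 3 its values were 1.04, still called, and 0.70, not called. NRP2, a neuropilin co-receptor, changed by 2.51 (SE 0.66) for H24/NC and 2.33 (SE 0.62) for H24/H8. It had 2.87, 1.90 and 1.68 FPKM in NC and 8.63, 3.80 and 24.7 FPKM in H24, and was still called in both without H24 replicate 3, at 1.5 and 1.35.

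NRP1, the other neuropilin, was called for H24/NC (1.59, SE 0.57) and H24/H8 (1.35, SE 0.51). It had 3.14, 3.86 and 6.96 FPKM in NC and 27.2, 6.42 and 9.72 FPKM in H24, so these groups overlapped. Here H24 replicate 1 was the high library, and without it neither value, 0.80 and 0.54, was called. PLAU (urokinase, which can activate PDGFD) was called for H24/NC at 1.86 (SE 0.59), with 12.4, 9.97 and 39.1 FPKM in H24, and was at 0.97 and not called without H24 replicate 3. It was also called for H8/NC, at 2.18 (SE 0.81) with 9.64, 49.4 and 6.59 FPKM in H8 and 3.35 to 8.12 FPKM in NC, which overlap, and was at 0.61 and not called without H8 replicate 2. The sheddases ADAM17, ADAM10 and ADAM9 were not called, with H24/NC values of 0.99, 0.28 and 0.17.

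The 24 signal transducers in the table held few calls. For H24/NC there were 0, for H8/NC 1 (GAB2, a docking adaptor, 1.02, SE 0.35) and for H24/H8 1 lower (GAB1, its relative, -1.01, SE 0.41). The range over the list for H24/NC was from -0.73 to 0.87.

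The feedback inhibitors were called for H8/NC in 1 gene higher and 1 lower, in 0 genes for H24/NC and in 3 lower genes for H24/H8, out of 15 tested, where 3.05% of all genes were lower for H24/H8. ERRFI1 (MIG6, which blocks the EGFR kinase) had 25.1, 36.0 and 68.8 FPKM in NC and 165, 274 and 92.6 FPKM in H8. It had 35.2, 52.2 and 34.5 FPKM in H24, back inside the NC range. Its log2 fold changes were 2.21 (SE 0.52) for H8/NC and -2.33 (SE 0.50) for H24/H8. LRIG3 was the gene called lower for H8/NC (-1.01, SE 0.27). SPRY2 (-1.73, SE 0.66) and DUSP5 (-2.44, SE 0.93), a Sprouty protein and a nuclear ERK phosphatase, were lower for H24/H8 with overlapping groups, both being highest in H8 replicate 2 at 87.8 and 22.6 FPKM.

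Early genes that mitogens are known to induce were called higher in 5 of 13 tested cases for H8/NC and in 3 for H24/NC, with 0 lower in both, against 5.11% and 9.95% of all genes called higher. Those of H8/NC included MYC (2.38, SE 0.74), PHLDA1 (1.90, SE 0.60) and IER3 (1.09, SE 0.39), with EGR3 and FOSB besides. MYC had 128, 415 and 59.7 FPKM in H8 against 25.2 to 60.3 FPKM in NC, so its groups overlapped. The groups of PHLDA1, EGR3 and FOSB overlapped too. Of the 13 tested, 1 gene, IER3, had all H8 libraries above all NC libraries, against 6.91% of all genes. CCND1 and ETV5, 2 genes, had all H8 libraries below. Without NC replicate 1 the list held 1 gene called higher for H8/NC, and 2 without H8 replicate 2. The genes called higher for H24/NC were the transcription factors EGR2 (1.96, SE 0.39) and ETV4 (2.15, SE 0.47), and PHLDA1 (1.05, SE 0.39). For H24/H8, 2 were higher (EGR2 at 1.49 and ETV4 at 2.58) and 4 lower, led by IER3 (-2.06, SE 0.41), with FOSL1, FOSB and MYC. H8 replicate 2 had the highest H8 level of MYC, PHLDA1, IER3 and ERRFI1, whereas HBEGF was highest in H8 replicate 1.

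Without H8 replicate 2, the genes of these lists called higher for H8/NC numbered 4 in place of 9, and 2 without NC replicate 1. For H24/H8 there were 4 higher in place of 7 and 2 lower in place of 8 without H8 replicate 2. The latter was also 4 when any single H24 library was left out. What sets H8 replicate 2 apart was not tested.

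Markers of macrophages, T cells and neutrophils were followed in the same libraries. The summed level of 7 macrophage markers was 15.3 to 16.9 FPKM in NC. It was 79.6, 13.7 and 43.2 FPKM in H8 and 142, 80.3 and 931 FPKM in H24, with 3 of 7 markers called higher for H8/NC and 7 of 7 for H24/NC and H24/H8. Without H24 replicate 3 these were 6 of 7 for H24/NC and 1 of 7 for H24/H8, and without H8 replicate 2 the H24/H8 count was also 1 and that of H8/NC was 5. H8 replicate 1 had both the highest HBEGF, 18.2 FPKM, and the highest macrophage sum of the H8 libraries. H8 replicate 2 had 9.07 FPKM of HBEGF with a macrophage sum below that of every NC library, and H24 replicate 3, with the highest macrophage sum, had the lowest HBEGF of its group. PDGFB and PDGFD were highest in that same H24 replicate 3. T cell markers summed to 0.165 to 0.362 FPKM in NC, 0.655 to 0.865 FPKM in H8 and 3.21 to 17.1 FPKM in H24, CD3G being at 0 in 2 NC libraries. Neutrophil markers summed to 0.445 to 0.495 FPKM in NC, 2.25 to 4.38 FPKM in H8 and 4.90 to 59.9 FPKM in H24, with S100A8 or S100A9 at 0 in 6 libraries. The H8 sum was nearly all CSF3R, with a mean of 3.39 FPKM against 0.255 FPKM in NC. From NC to H8, mean S100A8 went from 0.178 to 0 FPKM and S100A9 from 0.0350 to 0.00837 FPKM. S100A12 went the other way, from 0.00836 to 0.0322 FPKM. The part of these cells in the members' levels was not tested.

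For the usual sources and targets of PDGF in the wall, the sums were as follows. Smooth muscle markers summed to 11600 to 13600 FPKM in NC and 9850 to 13400 FPKM in H8. In H24 they summed to 7960, 11500 and 1710 FPKM, below every NC library. Their log2 fold changes for H24/NC were below 0 in 7 of 7 markers, with a median of -0.82, and 0 of 7 were called. Endothelial markers summed to 56.4 to 145 FPKM in NC, 39.4 to 67.3 FPKM in H8 and 63.7 to 106 FPKM in H24, with 0 of 6 called in any comparison. Their log2 fold changes were above 0 in 6 of 6 for H24/H8 (median 0.497). They were above 0 in 3 of 6 for H24/NC (median 0.005) and in 0 of 6 for H8/NC (median -0.389). The platelet and megakaryocyte markers in the table summed to 12 to 13.9 FPKM in NC, 6.28 to 10.3 FPKM in H8 and 9.36 to 12.2 FPKM in H24, and PPBP, a defining platelet marker, was at 0 in 5 libraries. Fibroblast markers summed to 2950 to 3750 FPKM in NC, 4570 to 7370 FPKM in H8 and 3260 to 3880 FPKM in H24, with 1 of 6, LUM, called higher for H24/NC. The collagen genes COL1A1, COL1A2 and COL3A1 made up most of each sum, with H8 means of 1367, 1194 and 3091 FPKM. For H8/NC, 2 of 6 fibroblast markers were called higher (COL1A1 and COL1A2), and none without H8 replicate 2. In 4 of 6, all H8 libraries lay above all NC libraries. Pericyte markers summed to 1030 to 1180 FPKM in NC, 751 to 1050 FPKM in H8 and 150 to 825 FPKM in H24, with 1 of 5 called lower for H24/NC. The part of these cell types in the levels of the PDGF ligands and receptors was not tested.

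Fat around the vessel was checked because a protocol text of the libraries speaks of an adipose type. Adipocyte markers summed to 89.7 to 157 FPKM in NC, 49.1 to 140 FPKM in H8 and 57.2 to 106 FPKM in H24. FABP4 made up most of each sum, with 47.9, 139 and 49.6 FPKM in H8. ADIPOQ had 4.44, 14.6 and 6.83 FPKM in NC, and 0.0954, 0.106 and 0.0789 FPKM in H8. In H24 ADIPOQ had 7.24, 0.0705 and 0.416 FPKM, and PLIN1 was likewise highest in replicate 1. Group means of LEP and CIDEC were higher in H24 than in NC. By calls, 3 of 4 tested markers were lower for H8/NC and 4 of 5 higher for H24/H8. The part of fat in the members' levels was not tested. B cell markers summed to 5.07 to 5.73 FPKM, 1.34 to 3.67 FPKM and 9.56 to 11.5 FPKM in NC, H8 and H24. Schwann cell markers (2.5 to 10.5 FPKM) and skeletal muscle markers (0.423 to 1.59 FPKM) were low in all 9 libraries.

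**Figure D5:**
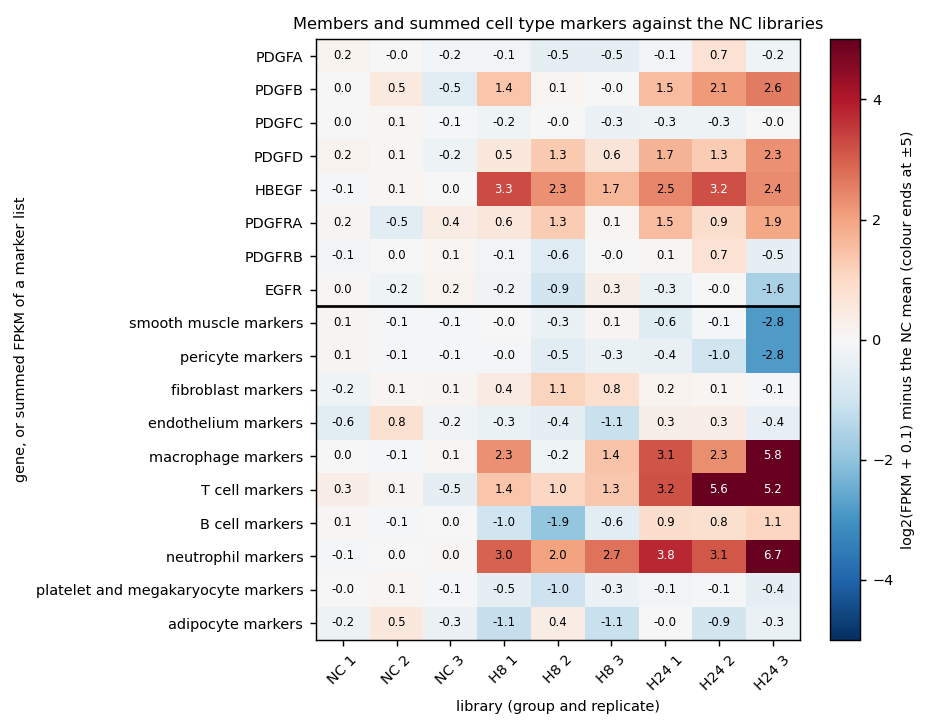
The 8 tested members (above the line) and the summed FPKM of 10 cell type marker lists (below it) in each library, as log2(FPKM + 0.1) minus the mean of the 3 NC libraries, with red for higher and blue for lower. H24 replicate 3 shows macrophage markers at 5.8 and smooth muscle markers at -2.8, and H8 replicate 2 shows HBEGF at 2.3 with macrophage markers at -0.2.

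The 3 members with the largest spread over the 9 libraries were HBEGF (SD of log2(FPKM + 0.1) of 1.36), PDGFB (1.09) and PDGFD (0.835). Among 9748 named genes of mean FPKM at least 1, those with the smallest root-mean-square difference from HBEGF, each gene centred on its own mean, were OSM (0.556), CD83 (0.626) and PENK (0.705). Mean levels of OSM, which encodes the cytokine oncostatin M, were 1.68, 5.64 and 7.00 FPKM in NC, H8 and H24. For PDGFB the closest were TMEM173 (0.259), CCL21 (0.303) and CLU (0.328), of which CLU, clusterin, had 127, 136 and 475 FPKM. For PDGFD they were ZBTB34 (0.165), C1R (0.279) and OLFML2B (0.282), of which C1R, a complement protease, had 40.3, 68.5 and 120 FPKM. The differences are on the log2 scale over 9 libraries, which share their cell mixture and depth between genes, and describe likeness of pattern only.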

How the data were processed

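Poly(A) RNA of 9 aorta samples, 3 per group, was sequenced as paired ends. The authors mapped reads with HISAT2 2.0 to Sscrofa11.1 and computed FPKM with StringTie 1.3.0. The submitters' processing notes also name Bowtie 0.12.2 and a mouse build, but the table holds pig coordinates. The deposited table adds an estimated count per gene and library, a whole number not scaled for depth. How these counts were derived, the annotation release and the strand setting are not given in the sources used here. Groups came from the sample labels, which give no batch or date. The paper does not describe H8. Every pair of libraries differed by more than counting noise (chi-square per degree of freedom of 236 or more in the 36 pairs).

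Fits of the estimated counts used edgeR 4.0.16 under R 4.3.3 (with data.table, version 1.17.8), with TMM scaling, a dispersion trend, the quasi-likelihood test of both directions and only the 6 libraries of the 2 groups compared. Genes were tested where their mean in these libraries reached 0.1 FPKM. The standard error is the size of the log2 fold change over the root of its F statistic. The procedure was tested on simulated data. The members and lists were chosen with earlier results of these data known. Named genes are the 10 members, of each list and comparison at most 3 called genes with the smallest p, and the 3 genes nearest in pattern to each of the 3 most variable members. Genes beyond this rule (NRG4, the other ErbB receptors, the sheddases, NRP1, PLAU for H24/NC, and EGR3, FOSB, FOSL1 and MYC where named last) were named after their values were seen. Alternatives were median-ratio scaling, scaling by total count, no filter, a mean FPKM of at least 1, all 9 libraries in a single fit, a replicate block, DESeq2 1.42.0, limma 3.58.1 on log2(FPKM + 0.1) and log2(FPKM + 1), leaving out each library, and adjusted p-values. Leaving out 2 libraries together was chosen after seeing the data. Tables and figures were made with pandas 2.3.3 and matplotlib 3.10.9.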

Additional observations from a re-analysis of the deposited data

How the results depend on the processing

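HBEGF, PDGFB, PDGFD and PDGFRA for H24/NC and HBEGF for H8/NC were called in all 15 alternative fits. Counts of members called higher did not change for H24/NC (4, also with each library left out), except to 0 by adjusted p. For H8/NC the count of 2 became 1 with scaling by total count, the replicate block, limma on log2(FPKM + 0.1) and limma on log2(FPKM + 1), 0 by adjusted p, and 1 to 3 with each library left out. For H24/H8 the count of 1 became 0 by adjusted p, 0 without H24 replicate 3 and H8 replicate 2 together, and 0 to 2 with each library left out. Members called lower stayed at 0 throughout.

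Pathway genes called higher went to 0 by adjusted p in every comparison. For H8/NC they were 5 with limma on log2(FPKM + 0.1) and 3 on log2(FPKM + 1) in place of 9, and 2 to 12 with each library left out. For H24/NC they were 7 to 12, and for H24/H8 4 to 9, with each library left out. Pathway genes called lower for H24/NC went from 1 to 0 with the filter at a mean FPKM of 1, the replicate block, limma on log2(FPKM + 1) and adjusted p, and were 0 to 3 with each library left out. For H8/NC they went from 1 to 0 with limma on log2(FPKM + 1) and adjusted p, and were 0 to 2 with each library left out. For H24/H8 they went from 8 to 4 with limma on either scale, to 2 without both libraries and to 0 by adjusted p, and were 2 to 10 with each library left out. The causes of these shifts were not tested.

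Signs turned only for members that were not called. PDGFC for H24/H8 became 0.0066 with scaling by total count. With each library left out, the log2 fold changes spanned -0.22 to 0.35 for PDGFA and -0.23 to 0.41 for PDGFRB in H24/NC, -0.17 to 0.063 for PDGFC and -0.36 to 0.13 for EGFR in H8/NC, and -0.052 to 0.57 for PDGFA, -0.15 to 0.53 for PDGFRB and -0.38 to 0.52 for HBEGF in H24/H8.

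Over all genes, calls higher for H24/NC numbered 1475, but 714 with limma on log2(FPKM + 1) and 946 without H24 replicate 3, and calls lower numbered 225, but 141 with the filter at a mean FPKM of 1 or limma on log2(FPKM + 1), and 137 to 456 with each library left out. For H8/NC, 733 higher became 440 with that filter, 454 with limma on log2(FPKM + 0.1) and 202 on log2(FPKM + 1), and 326 lower became 178, 505 and 141. For H24/H8, 1068 higher became 517 with limma on log2(FPKM + 1), 533 without both libraries and 547 to 1407 with each library left out, and 451 lower became 290 with scaling by total count, 177 with limma on log2(FPKM + 1), 290 without both libraries and 248 to 684 with each library left out.

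Deviations of same-numbered libraries from their group means had r across genes from -0.0798 to 0.0934 over the 3 comparisons. For libraries of different number, r was from -0.187 to 0.195. The replicate 2 pairs were positive in all 3 comparisons (0.0855, 0.0745 and 0.0934), and the others were from -0.0798 to 0.03. With 3 libraries per group the deviations are tied to each other, so this check cannot exclude a shared batch. With the replicate block the members called were 4, 1 and 1 for H24/NC, H8/NC and H24/H8. With 3 pigs per group, differences smaller than the intervals given cannot be told from none, and EREG and TGFA are too low for a test.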
